A study of Homo sapiens with 14 samples.

Results

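The genes described here are 10 chemokines of human lung fibroblasts, the CC chemokines CCL2, CCL7, CCL8, CCL11, CCL13, CCL20 and CCL26 and the CXC chemokines CXCL10, CXCL12 and CXCL16, which lack the ELR motif that marks the neutrophil-attracting members of the CXC family. They were taken as a list by symbol and are 10 of the 54628 gene symbols counted in each library. IMR90, an established line of fetal human lung fibroblasts, was profiled by RNA sequencing in 14 libraries of 6 groups. The study asked how a senescence programme induced by a small molecule, and knockdowns of nuclear proteins on top of it, change expression and splicing. Untreated cells formed the group WT (2 libraries), and untreated cells with HMGB2 knocked down formed siHMGB2 (2 libraries). Cells made senescent with 10 µM inflachromene, abbreviated ICM, for up to 6 days formed the group ICM (4 libraries). The same treatment combined with knockdown of SRRM2, BANF1 or CTCF gave siSRRM2, siBANF1 and siCTCF (2 libraries each). The labels of ICM replicates 3 and 4 and of siCTCF have another form than the rest and were treated as a second set, so that siSRRM2 and siBANF1 were compared with ICM replicates 1 and 2 (ICM 1-2) and siCTCF with ICM replicates 3 and 4 (ICM 3-4). The cell line field of these 4 libraries carries other numbers than IMR90, their titles name IMR90, and the titles were followed. No library in the second set is untreated. The growth protocol names 2 isolates of the line without tying them to libraries, and nothing in the labels says that replicates were separate cultures, so the p-values measure the spread between these libraries, which may be technical.

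Chemokines are small secreted proteins that bind G protein-coupled receptors on leukocytes and draw those cells along a gradient, held in place by heparan sulfate on cell surfaces and matrix. In fibroblasts most of the inflammatory CC chemokines and CXCL10 are induced by NF-kB, AP-1 and interferon signalling, whereas CXCL12 is a constitutive product of stromal cells. CCL2 is a widely known component of the secretory phenotype of senescent fibroblasts. CCL2, CCL7, CCL8 and CCL13 are monocyte chemoattractants acting mainly through CCR2 and related receptors, and CCL11 and CCL26 are eotaxins that attract eosinophils through CCR3. CCL20 is the ligand of CCR6, CXCL10 of CXCR3, CXCL12 of CXCR4 and ACKR3, and CXCL16 of CXCR6.

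Of the 10 genes, 5 lie side by side on chromosome 17, in the order CCL2, CCL7, CCL11, CCL8 and CCL13, between positions 34255285 and 34358610 (GRCh38.p14). This stretch of 103326 bases holds no other protein-coding gene in the RefSeq table. CXCL16 lies apart on the same chromosome, at positions 4733533 to 4739928 on the minus strand. In GENCODE v29 CXCL16 is the only member whose exons overlap another gene, MED11, on the opposite strand, and because the sources used here give no strand setting, reads of this pair cannot be told apart where they overlap. CCL20 is on chromosome 2 (227813842 to 227817556, plus strand), CCL26 on chromosome 7 (75769524 to 75791597, minus strand), CXCL10 on chromosome 4 (76021118 to 76023497, minus strand) and CXCL12 on chromosome 10 (44370165 to 44385097, minus strand).

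The 250 bases before the start site are shown for the members that the tests called below and for which the RefSeq promoter table (GRCh38.p14) has an entry. CCL2, CCL11 and CXCL16 had none. The regions are chr2:227813592-227813841 (plus strand) for CCL20, chr4:76023498-76023747 (minus) for CXCL10, chr17:34269971-34270220 (plus) for CCL7, chr10:44385098-44385347 (minus) for CXCL12 and chr7:75789747-75789996 (minus) for CCL26. The start site that the table gives for CCL26 lies inside the gene bounds stated above. Each is written 5′ to 3′ in lower case, with capitals for matches to the motifs searched.
CCL20: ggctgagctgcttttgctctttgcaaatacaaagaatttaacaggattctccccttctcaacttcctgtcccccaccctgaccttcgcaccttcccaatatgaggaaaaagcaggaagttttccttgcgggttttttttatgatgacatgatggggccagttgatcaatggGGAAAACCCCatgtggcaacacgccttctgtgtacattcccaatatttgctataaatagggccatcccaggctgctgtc
CXCL10: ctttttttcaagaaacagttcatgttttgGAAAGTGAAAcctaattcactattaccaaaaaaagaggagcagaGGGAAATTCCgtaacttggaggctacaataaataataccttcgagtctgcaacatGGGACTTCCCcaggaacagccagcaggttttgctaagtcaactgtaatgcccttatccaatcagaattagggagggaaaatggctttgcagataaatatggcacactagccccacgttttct
CCL7: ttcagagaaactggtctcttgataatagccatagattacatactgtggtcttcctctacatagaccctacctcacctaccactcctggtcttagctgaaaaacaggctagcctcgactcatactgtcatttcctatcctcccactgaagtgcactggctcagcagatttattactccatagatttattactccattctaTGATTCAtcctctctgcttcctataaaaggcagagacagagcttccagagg
CXCL12: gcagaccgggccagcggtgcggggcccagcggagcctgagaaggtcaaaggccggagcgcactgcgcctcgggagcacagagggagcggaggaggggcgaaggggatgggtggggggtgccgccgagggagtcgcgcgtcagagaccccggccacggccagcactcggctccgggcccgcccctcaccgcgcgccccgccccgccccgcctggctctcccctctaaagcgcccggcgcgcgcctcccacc
CCL26: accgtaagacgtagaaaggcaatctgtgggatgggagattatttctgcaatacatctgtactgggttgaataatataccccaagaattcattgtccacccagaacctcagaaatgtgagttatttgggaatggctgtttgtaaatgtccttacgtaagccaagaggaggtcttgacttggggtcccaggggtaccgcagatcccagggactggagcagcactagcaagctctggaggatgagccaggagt
Motifs searched on both strands, over these bases and the 50 that follow the start, were the NF-kB consensus, the AP-1 element TGANTCA, an interferon-type repeat (TTTC, any 2 bases, TTTC) and a STAT6-type palindrome (TTC, any 4 bases, GAA). CCL20 held 1 match to the NF-kB consensus, at position -79 from the start site. CXCL10 held 2, at -177 and -122, and 1 match to the interferon-type repeat at -221. CCL7 held 1 match to the AP-1 element, at -51. None of the matches overlapped each other. The promoters of CXCL12, CCL26, CCL8 and CCL13 held no match to these letters in the window. Among 35116 promoters of this length, 11.3% held the NF-kB consensus, 7.71% the AP-1 element, 3.57% the interferon-type repeat and 6.44% the STAT6-type palindrome. The matches describe the sequence only.

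Library sizes were 33561766 to 41168932 gene counts in WT and siHMGB2, 39435430 to 58257456 in the other libraries of the first set and 22336161 to 26779027 in the second set, so 1 count was worth 0.0172 to 0.0448 CPM, a gene's count scaled to 1000000 gene counts of its library. The share of counts from small RNA genes was 3.19% to 6.06% in the 6 ICM-treated libraries of the first set, against 0.00515% to 0.00812% in every other library, WT included, and mitochondrial mRNA took 3.11% and 3.54% in WT, 0.0677% and 0.454% in ICM 1-2, and 0.241% and 0.252% in ICM 3-4. It took 2.7% to 3.44% in siHMGB2 and 0.0675% to 0.754% in the other libraries. Reads given to no gene were 17.49% and 17.94% of a library in WT, 26.5% and 35.24% in ICM 1-2 and 13.11% and 14.3% in ICM 3-4, and 41.78% in siBANF1 1. These differences in composition cannot be told apart from treatment in the comparisons of ICM with WT. The target of the knockdown was lower in siHMGB2 (HMGB2 at 3.18 and 3.52 CPM, against 27.68 and 28.01 in WT) and in siCTCF (CTCF at 71.5 and 22.97 CPM, against 94.87 and 91.92 in ICM 3-4). It was also lower in the libraries labelled siSRRM2 (SRRM2 at 76.05 and 76.42 CPM, against 237.8 and 112.4 in ICM 1-2), but not in those labelled siBANF1. BANF1 stood at 16.96 and 36.72 CPM under the label siBANF1, against 13.52 and 32.72 in ICM 1-2, while SRRM2 was lowest under that same label (58.98 and 17.01 CPM). The deposited names of the data of these 4 libraries carry the other knockdown, yet BANF1 was at 34.24 and 33.34 CPM under the label siSRRM2, below neither ICM library. ICM 1 and ICM 2 lay far apart, with a median chi-square per gene of 39.6 between them, as did siBANF1 1 and 2 (39.6), whereas ICM 2 and siBANF1 2 differed by 2.92 and ICM 1 and siBANF1 1 by 9.82. Results that rest on ICM 1 and siBANF1 1 are therefore also given without both. The sum of 12 fibroblast markers was 26900 to 35200 CPM in WT, 40200 to 48400 in siHMGB2, 5930 to 21600 in ICM 1-2, 13000 to 13400 in siSRRM2, 6500 to 18100 in siBANF1, 3160 to 6000 in ICM 3-4 and 2810 to 6010 in siCTCF. Among markers of leukocytes, which make several of these chemokines, PTPRC was at no more than 0.0894 CPM, TYROBP at no more than 0.0394, and CD3D and CD3E at 0 in all 14 libraries, where the sum of 5 T cell markers was at most 0.119. The sum of the 9 macrophage and monocyte markers was 40.4 to 41.1 CPM in WT, 44.6 to 49.3 in siHMGB2, 59.3 to 96.2 in ICM 1-2, 82.1 to 82.4 in siSRRM2, 57.1 to 93.6 in siBANF1, 96.5 to 105 in ICM 3-4 and 90 to 100 in siCTCF, carried by CD68, a lysosomal protein, at 39.1 to 104 CPM. CD14, a co-receptor for bacterial lipopolysaccharide, was at 12.95 CPM in ICM 1, 5.5 and 6.25 in the libraries labelled siSRRM2 and 4.24 in siBANF1 1, and at no more than 1.34 in the other 10. The other 7 markers of that list did not exceed 0.523 CPM. The sum of 5 endothelial markers was 74.6 to 89.1 CPM in WT, 62.7 to 78.5 in siHMGB2, 68.4 to 244 in ICM 1-2, 89.1 to 91.4 in siSRRM2, 65.1 to 125 in siBANF1, 2.96 to 16.2 in ICM 3-4 and 2.73 to 17.4 in siCTCF. TEK ranged from 2.5 to 241 CPM, with KDR at up to 8.13 and CDH5 at no more than 0.0225. The sum of 6 epithelial markers was 54.6 to 58.4 CPM in WT, 71.8 to 99.4 in siHMGB2, 33.8 to 154 in ICM 1-2, 102 to 103 in siSRRM2, 42.4 to 176 in siBANF1, 191 to 212 in ICM 3-4 and 196 to 203 in siCTCF, carried by KRT18 (17.7 to 194 CPM) and KRT8 (9.23 to 21), with CDH1 at no more than 0.0486 and SFTPC at 0. The part of these markers in the chemokine results was not tested.

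CCL2 dominated the 10 chemokines in untreated cells and was nearly absent from the second ICM set. CCL2 was at 210.3 and 155.3 CPM in the WT libraries, which is 82.7% and 81.6% of the summed level of the 10 genes. It was at 129.4 and 63.74 CPM in siHMGB2. In the first ICM set it stood at 48.81 CPM in ICM 1 and 10.89 in ICM 2, both below the lowest untreated library. The libraries labelled siSRRM2 were close to each other and to ICM 2, at 13.1 and 11.81 CPM, and those labelled siBANF1 were split, at 116.8 and 12.84 CPM. The second set was lowest of all, with 0.962 and 0.276 CPM in ICM 3 and 4 (23 and 7 counts) and 0.492 and 0.112 in siCTCF (11 and 3 counts). The ranges of WT, ICM 1-2 and ICM 3-4, with 2 libraries each, did not overlap.

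**Figure D1:**
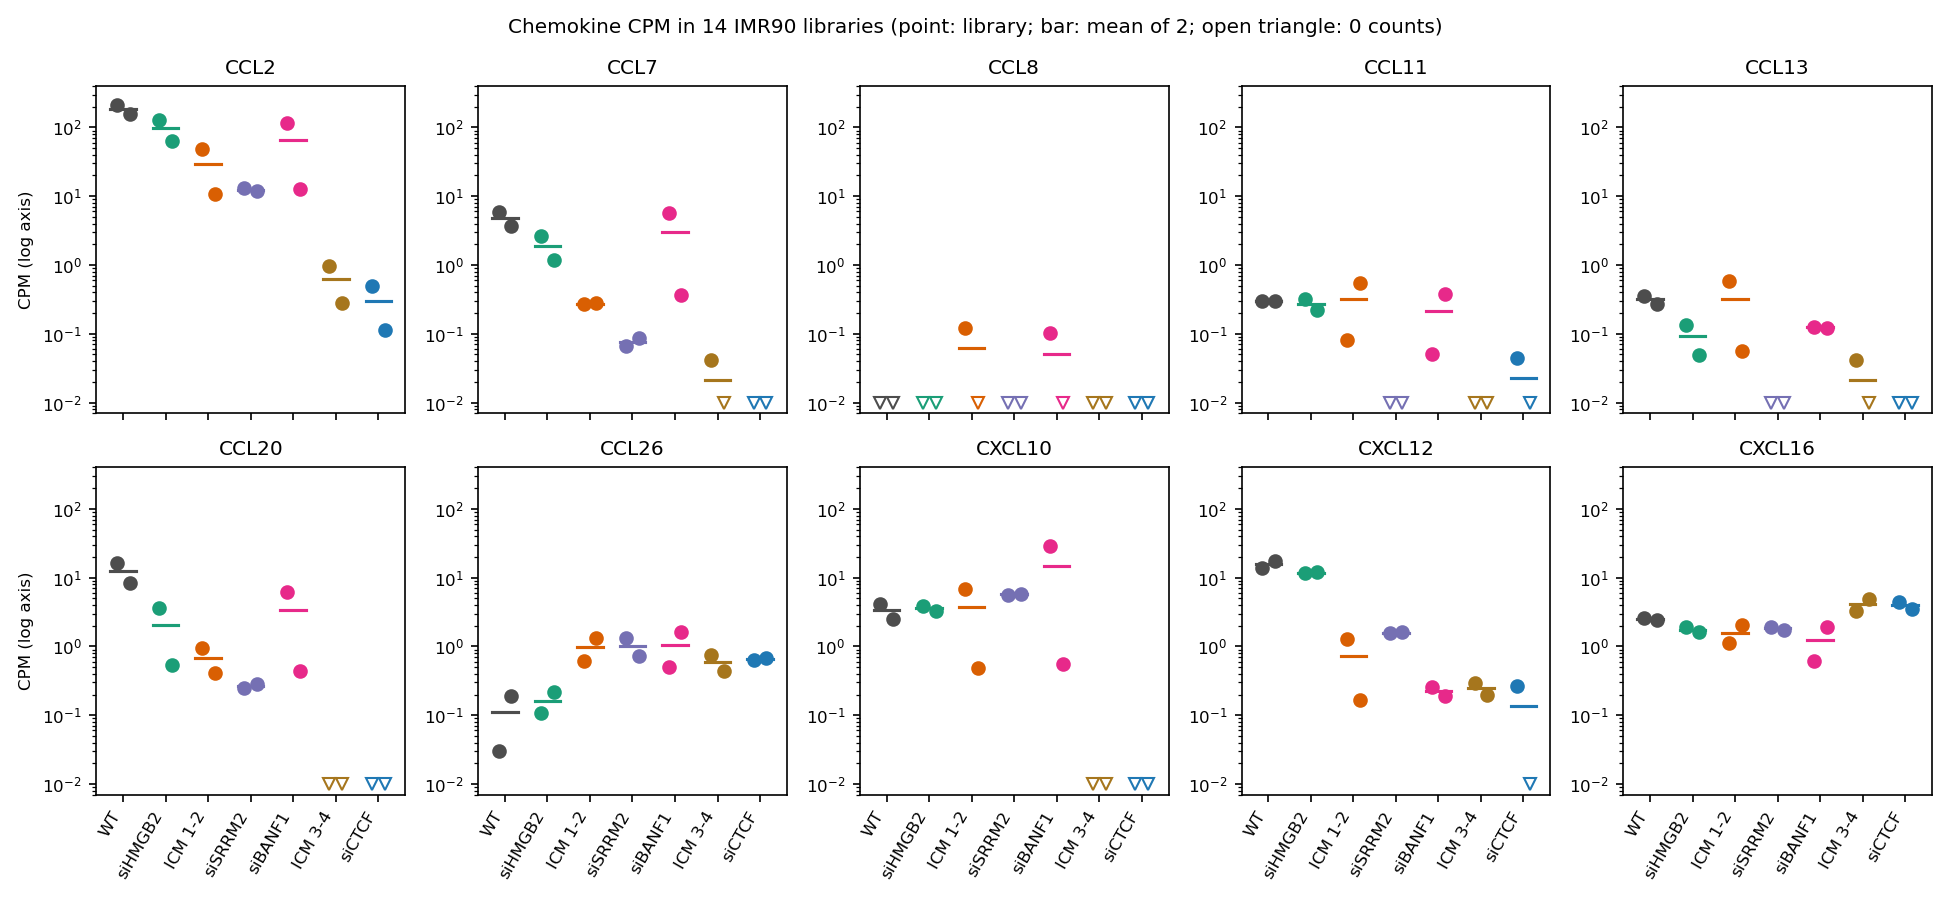
CPM of each chemokine on a log axis, with 1 point per library, the mean of the 2 libraries as a bar, and 0 counts drawn as open triangles at 0.01 CPM. CCL2 falls from 210.3 and 155.3 CPM in WT to 0.962 and 0.276 in ICM 3-4, while CXCL16 is at 3.3 and 4.93 CPM there and at 2.59 and 2.41 in WT.

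The other monocyte chemoattractants were far less abundant. CCL7 was at 5.93 and 3.65 CPM in WT, 2.64 and 1.19 in siHMGB2 and 0.266 and 0.276 in ICM 1 and 2. It reached 5.68 CPM in siBANF1 1, the level of WT, against 0.36 in siBANF1 2, and was represented by 1 count in ICM 3 and none in ICM 4 or siCTCF. CCL13, which acts on monocytes and eosinophils, stayed under 0.6 CPM in every library, with 0.358 and 0.274 in WT and its highest value, 0.594, in ICM 1. CCL8 was detected in 2 libraries only, with 6 counts in ICM 1 and 4 in siBANF1 1. It did not pass the filter on low counts and was not tested, and 0 counts in both WT libraries allow up to 0.0428 CPM, 3 counts over the group. Against that floor CCL8 was at least 1.36-fold higher in ICM 1-2 than in WT, and the libraries labelled siSRRM2 were at least 1.76-fold lower than ICM 1-2. Both bounds rest on ICM 1 alone, since ICM 2 had 0 counts, like WT.

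Of the eotaxins, CCL11 and CCL26 differed in where they were found. CCL11 was at 0.298 and 0.302 CPM in WT, 0.323 and 0.219 in siHMGB2 and 0.082 and 0.553 in ICM 1 and 2. It had no counts in the libraries labelled siSRRM2 or in ICM 3-4. CCL26 was lowest in untreated cells, at 0.0298 and 0.192 CPM in WT and 0.108 and 0.219 in siHMGB2. All 10 ICM-treated libraries lay above those 4, from 0.434 CPM in ICM 4 to 1.6 in siBANF1 2. CCL26 counts in WT were 1 and 7, so its level there is known only to within wide counting error.

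CCL20, which attracts CCR6-bearing lymphocytes and dendritic cells, stood at 16.57 and 8.31 CPM in WT and was lower in all other libraries. It was at 3.58 and 0.534 CPM in siHMGB2, 0.963 and 0.405 in ICM 1 and 2, and 0.247 and 0.281 in the libraries labelled siSRRM2. It stood at 6.29 CPM in siBANF1 1, the library where CCL2 was also high, and at 0.446 in siBANF1 2. No count of CCL20 was found in any of the 4 libraries of the second set, which allows up to 0.0609 CPM in ICM 3-4 and 0.0611 in siCTCF.

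The 3 CXC members each followed another course. CXCL10 was at 4.14 and 2.52 CPM in WT and 3.93 and 3.25 in siHMGB2, and it ranged from 0.479 CPM in ICM 2 and 0.549 in siBANF1 2 to 6.88 in ICM 1 and 28.65 in siBANF1 1. The libraries labelled siSRRM2 were again close, at 5.57 and 5.82 CPM, and the second set held no CXCL10 count. CD14 was also highest in ICM 1, siBANF1 1 and the libraries labelled siSRRM2, and its part in these values was not tested. CXCL12 was at 14 and 17.23 CPM in WT and 11.63 and 11.98 in siHMGB2 and reached at most 1.6 CPM in the ICM-treated libraries. CXCL16, a chemokine made as a membrane protein and shed by ADAM10 and ADAM17, varied least, between 0.609 CPM in siBANF1 1 and 4.93 in ICM 4. Its 4 second-set libraries, at 3.3 to 4.93 CPM, all lay above the 10 libraries of the first set, whose highest value was 2.59.

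Levels of different genes were compared per kilobase of the union of exons (GENCODE v29), as CPM per kb. In WT the order was CCL2 at 92 ± 19.6 CPM per kb (SD, n = 2), CCL20 at 7.8 ± 3.66, CCL7 at 5.55 ± 1.87, CXCL10 at 2.83 ± 0.973, CXCL12 at 2.57 ± 0.375 and CXCL16 at 0.896 ± 0.045. CCL20 and CCL7 differed by less than the SD of CCL20, and CXCL10 and CXCL12 by less than either SD. Neither pair has a settled order. CCL13, CCL11 and CCL26 were at 0.371, 0.278 and 0.157 CPM per kb and CCL8 at 0. In ICM 3-4 the order was another one, with CXCL16 first at 1.47 ± 0.411 CPM per kb, CCL26 next at 0.84 ± 0.32 and then CCL2 at 0.312 ± 0.244. CXCL16 was also first in siCTCF, at 1.43 CPM per kb.

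The summed level of the 10 genes was 254.2 and 190.1 CPM in WT, 153.7 and 82.78 in siHMGB2, 60.73 and 16.18 in ICM 1 and 2, and 5.4 and 5.83 in ICM 3 and 4. The share of CCL2 in that sum moved from 82.7% and 81.6% in WT to 17.8% and 4.73% in ICM 3 and 4. In siCTCF it was 8.33% and 2.61% of 5.91 and 4.29 CPM. The siBANF1 1 library, at 159.1 CPM, held a sum above both siHMGB2 libraries, whereas its replicate stood at 18.38 CPM.

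**Figure D2:**
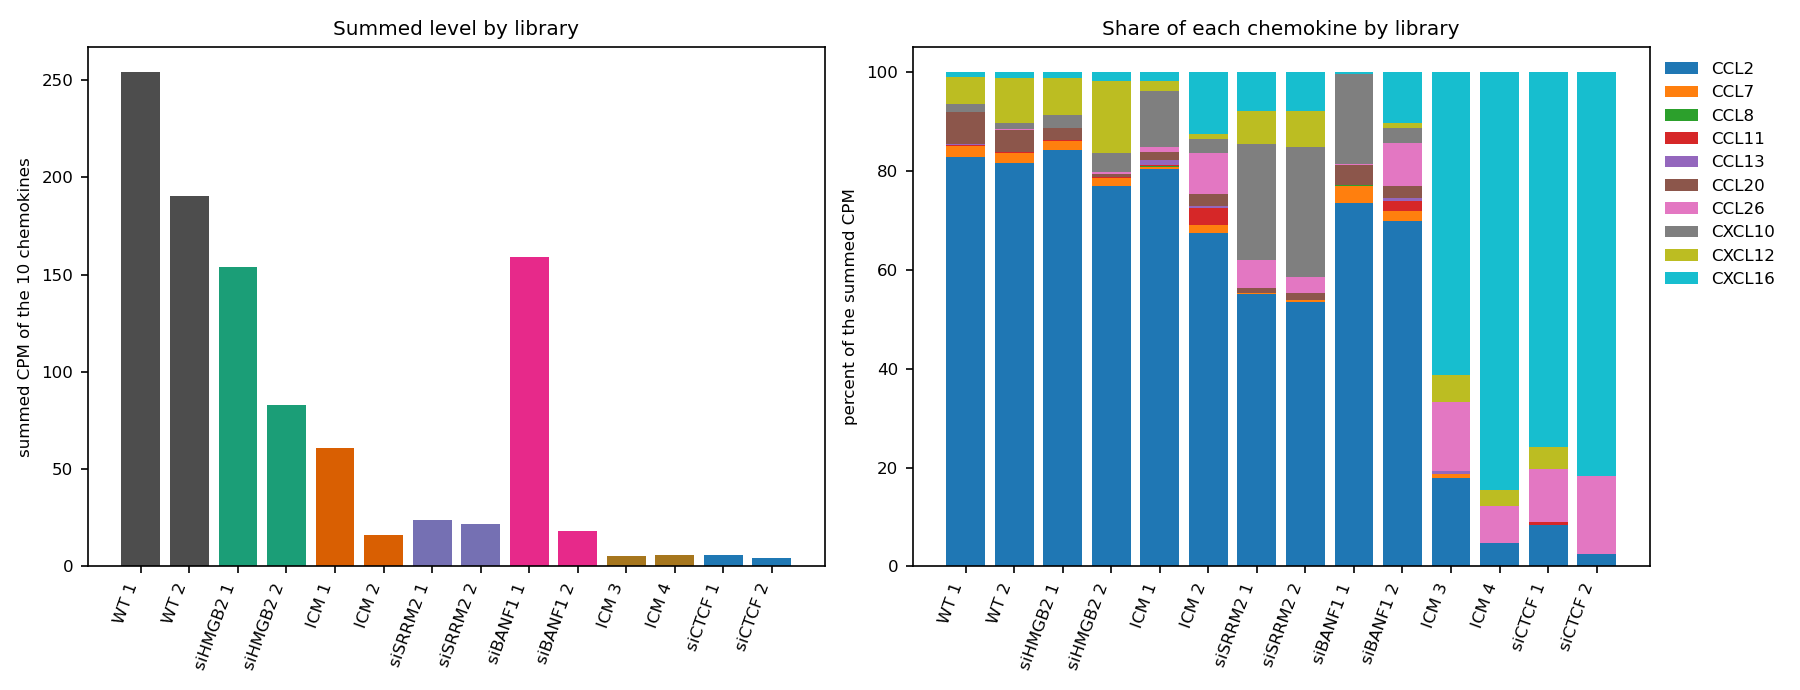
Left, the summed CPM of the 10 chemokines in each library. Right, the percent of that sum taken by each chemokine, which shows CCL2 at 82.7% and 81.6% in WT and at 17.8% and 4.73% in ICM 3 and 4, where CXCL16 takes most of the sum.

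Senescence was compared with proliferation first as ICM 1-2 against WT, which share a label form. Small RNA genes took 6.06% and 3.19% of counts in ICM 1 and ICM 2, against 0.00799% and 0.00811% in WT. That difference in composition cannot be told apart from treatment here. CXCL12 and CCL7 fell and CCL26 rose. CXCL12 was 0.728 ± 0.796 CPM against 15.62 ± 2.28 in WT (SD, n = 2 each), a log2 fold change of -4.51 (SE 0.94, adjusted p = 0.0128, edgeR quasi-likelihood test). The fall of CCL7 was -4.26 (SE 1.13, adjusted p = 0.0364) and the rise of CCL26 was 2.92 (SE 0.87, adjusted p = 0.0485). Of the 9 members tested, 3 were called, beside 13.5% of all 19126 genes, with 6.63% called higher and 6.87% lower. CCL20 (-4.29, SE 1.3, adjusted p = 0.0608) and CCL2 (-2.7, SE 1.01, adjusted p = 0.0995) did not pass. CXCL16 (-0.83), CCL11 (-0.09), CCL13 (-0.05) and CXCL10 (0.07) did not pass either. The median over the 9 was -0.83, against 0.1 for all genes.

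These 3 calls rest on the spread shared by all 14 libraries. Where 1 of the 4 compared libraries is left out below, its arm is a single library, assumed to vary like the other groups. This also holds for leaving out ICM 1 together with siBANF1 1, where ICM 2 alone stands for ICM 1-2. That pair was chosen after seeing the data, so calls without it are not firmer than those of the main fit. Fitted to the 4 libraries compared, the data gave no call among the members (33 of all genes, 0.173%), and CCL7 was not called when any of the 4 was left out (adjusted p between 0.0752 and 0.14). CXCL12 was called in 2 of those 4 fits, losing its call without either WT library, and CCL26 in 1, without ICM 1. Without ICM 1 and siBANF1 1, 6 members were called beside 45.9% of all genes, among them CCL2 at -4.28, CCL20 at -5.14 and CXCL10 at -3.00, with CXCL12 at -6.74.

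The comparison of ICM 3-4 with WT carries the same treatment label, but set and treatment cannot be told apart in it. The 6 members called were all lower, CCL2, CXCL12, CCL7, CCL20, CXCL10 and CCL11. CCL2 was at 0.619 ± 0.485 CPM against 182.8 ± 38.9 (SD, n = 2 each), a log2 fold change of -8.43 (SE 1.36, adjusted p = 0.00233, edgeR). CXCL12 was at 0.245 ± 0.0677 CPM, a change of -6.21 (SE 1.06, adjusted p = 0.00307). CCL20, with 0 counts against 859, was at least 202-fold lower (adjusted p = 0.00792), and CXCL10, with 0 against 231, at least 54.2-fold lower (adjusted p = 0.0413). CCL7 was represented by 1 count against 332, a ratio of 0.00428 with a 95% counting interval of 0.000108 to 0.024 (adjusted p = 0.00698). CCL11, with 0 counts against 21, was at least 4.93-fold lower (adjusted p = 0.044).

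These 6 of 9 stand beside 30.3% of all genes called, 16.0% lower and 14.3% higher. CCL13 (1 count against 22, ratio 0.0646, interval 0.00156 to 0.4, adjusted p = 0.0862), CCL26 (2.14, SE 0.88, adjusted p = 0.0859) and CXCL16 (0.47, SE 0.48, adjusted p = 0.476) did not pass. With 0-count genes at their bounds, the median over the 9 was -5.76, against -0.02 for all genes. Total-count scaling, used instead of TMM, turned the split of all calls from 2732 higher and 3065 lower to 3448 higher and 2449 lower, and moved the median of all genes to 0.18. CCL2, CXCL12 and CCL20 were called whichever of the 4 libraries was left out. CXCL10 and CCL11 were called in none of these 4 fits (adjusted p 0.091 to 0.152 and 0.104 to 0.152), and CCL7 was not called without ICM 4. CCL11 was also not called under total-count scaling. In bulk RNA, fewer cells making a chemokine and less RNA per cell cannot be told apart. The fibroblast markers moved with these falls, 8 of 12 called lower and none higher, and their part in the result was not tested.

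**Figure D3:**
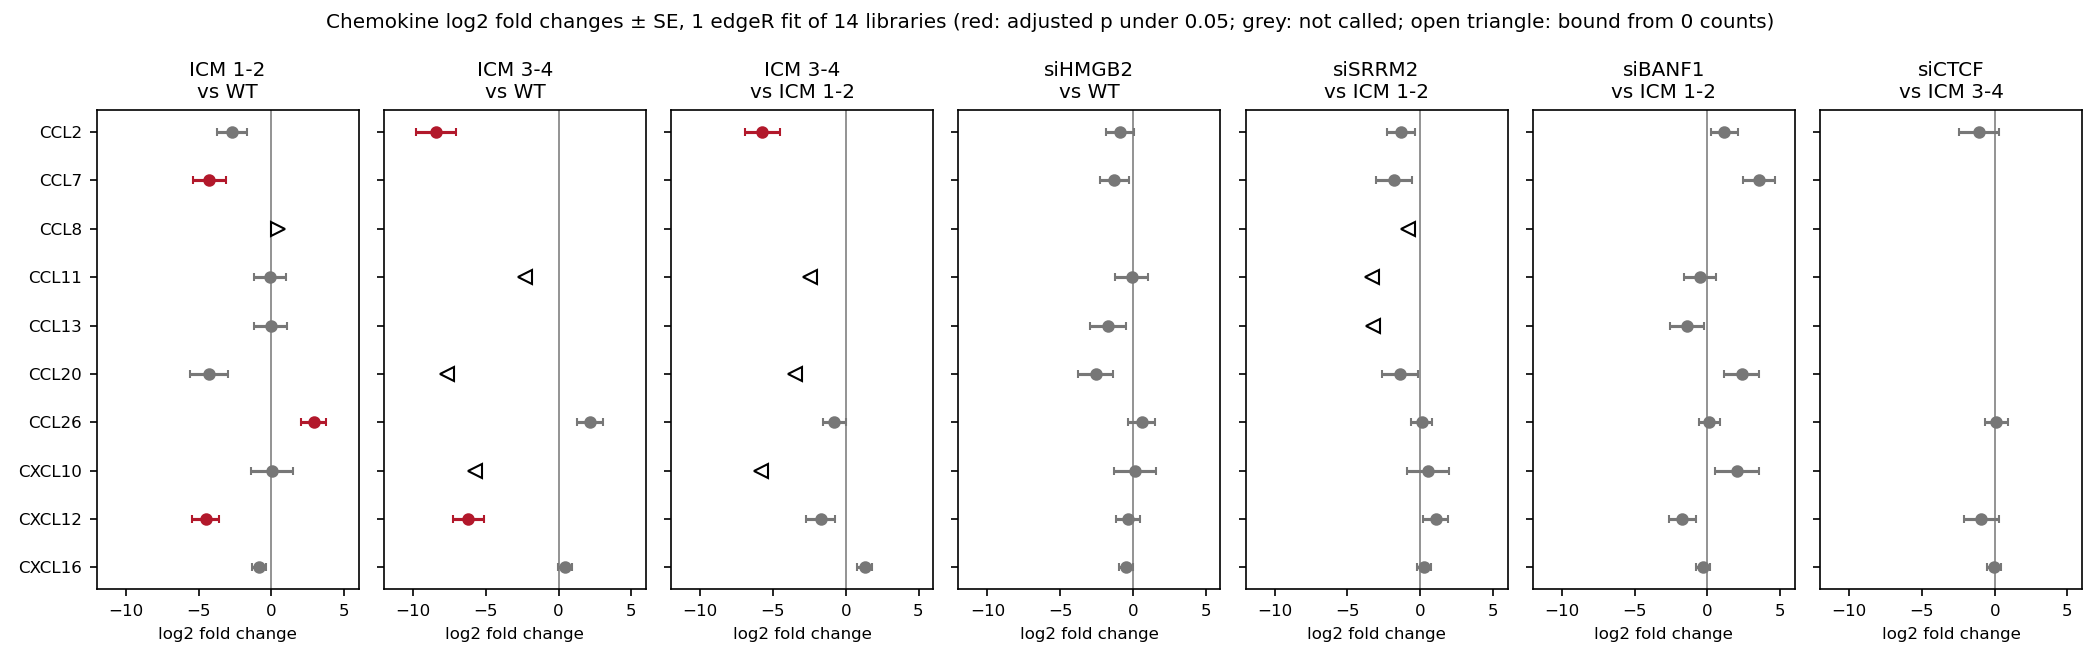
Log2 fold changes of the members with their SE in 7 comparisons from 1 edgeR fit, red where called and grey where not. Open triangles are bounds for genes with 0 counts in 1 arm, and genes with 1 to 3 counts in an arm, or with too few counts in both, have no symbol. Red points stand for CXCL12, CCL7 and CCL26 in ICM 1-2 against WT, CCL2 and CXCL12 in ICM 3-4 against WT, and CCL2 between the ICM sets.

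Libraries with 1 treatment label, ICM 3-4 and ICM 1-2, were compared directly. CCL2 was lower in ICM 3-4, by -5.73 (SE 1.23, adjusted p = 0.011, edgeR), and was the 1 member called of 9, beside 11.0% of all genes called lower and 8.53% higher. CXCL10 was at least 57.7-fold lower (0 counts against 362, adjusted p = 0.0526) and CCL20 at least 11-fold lower (0 against 69, adjusted p = 0.074), and neither passed. CXCL16 was higher by 1.29 (SE 0.49, adjusted p = 0.0837) and did not pass. CCL11 was at least 5.42-fold lower (0 counts against 34, adjusted p = 0.0594). CCL7 had 1 count against 28 (ratio 0.0747, interval 0.00183 to 0.452, adjusted p = 0.154) and CCL13 1 against 32 (ratio 0.0654, interval 0.00161 to 0.391, adjusted p = 0.109). These bounds and ratios pool ICM 1 and ICM 2, whose counts were uneven for most of these genes. In ICM 1 and ICM 2 they were 336 and 26 for CXCL10, 47 and 22 for CCL20 and 4 and 30 for CCL11. For CCL13 they were 29 and 3, and for CCL7 13 and 15. CCL11, CCL7, CCL13, CCL26 (-0.78) and CXCL12 (-1.71) did not pass. The call of CCL2 was lost without ICM 1 (-4.16, adjusted p = 0.0501), without ICM 3 (adjusted p = 0.0575) or without ICM 4 (adjusted p = 0.0836). Without both ICM 1 and siBANF1 1, ICM 2 alone is the reference, so only the size of the change is given. It was -4.17 for CCL2. ICM 1-2 and ICM 3-4 were both compared with WT, so those 2 comparisons share their controls.

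Knockdown of HMGB2 in untreated cells, a chromatin protein that inflachromene binds, was followed by lower values of CCL2, CCL7 and CCL20 that the fit to all 14 libraries did not call. The ratio of CPM to that of the same-numbered WT library was 0.216 and 0.0643 for CCL20, 0.445 and 0.326 for CCL7, and 0.615 and 0.411 for CCL2. The log2 fold changes were -2.56 for CCL20 (SE 1.2), -1.28 for CCL7 (SE 0.99) and -0.87 for CCL2 (SE 0.96), each with an adjusted p of 1. No gene of the 19126 was called (0.0%), with 908 at an unadjusted p under 0.05 and 73 called by DESeq2. With only these 4 libraries in the fit, 2055 genes were called (10.7%, with 4.71% lower), and CCL20 (-2.56, SE 0.34, adjusted p = 1.3e-07), CCL7 (-1.27, SE 0.31, adjusted p = 0.00353) and CCL2 (-0.86, SE 0.18, adjusted p = 0.000371) were among them. CXCL12 (-0.35), CXCL16 (-0.46), CXCL10 (0.16), CCL11 (-0.1), CCL13 (-1.72) and CCL26 (0.59) were called in neither fit. The summed fibroblast markers were higher in siHMGB2 than in WT, and their part in the values was not tested.

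For the libraries labelled siSRRM2 against ICM 1-2, 0 of 9 members were called, beside 34 of all genes (0.178%). SRRM2 is a scaffold protein of nuclear speckles, the bodies that store splicing factors. CCL11, with 0 counts against 34, was at least 9.98-fold lower (adjusted p = 0.234), and CCL13, with 0 against 32, at least 9.39-fold lower (adjusted p = 0.23). The pooled reference counts in ICM 1 and ICM 2 were 4 and 30 for CCL11 and 29 and 3 for CCL13. Neither bound therefore holds against each ICM library alone. CCL2 (-1.31, SE 0.97, adjusted p = 0.642), CXCL12 (1.07, SE 0.85, adjusted p = 0.669) and CXCL10 (0.56, SE 1.45, adjusted p = 0.917) did not pass, nor did CCL7 (-1.78), CCL20 (-1.39), CXCL16 (0.24) or CCL26 (0.1). Without ICM 1 and siBANF1 1, 2016 genes were called (10.5%), among them CXCL10 (3.63, adjusted p = 0.00604), CXCL12 (3.30, adjusted p = 0.0176) and, lower, CCL11 (adjusted p = 0.017), while CCL2 changed sign to 0.26. That fit holds 1 ICM library, assumed to vary like the other groups.

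For the libraries labelled siBANF1 against ICM 1-2, no member and no other gene was called (0.0%), with 591 genes at an unadjusted p under 0.05 and 17 called by DESeq2. BANF1 is a small protein that links chromatin to the nuclear envelope. The largest member value was CCL7 at 3.56 (SE 1.1, adjusted p = 1). It was 4.48 when siBANF1 2 was left out, a value that rests on siBANF1 1 alone. CCL20 (2.36), CXCL10 (2.03), CCL2 (1.17), CCL26 (0.14), CXCL16 (-0.29), CCL11 (-0.5), CCL13 (-1.39) and CXCL12 (-1.73) also had an adjusted p of 1. Leaving out ICM 1 and siBANF1 1 leaves siBANF1 2 against ICM 2. CCL7 was then at 0.4, CCL20 at 0.16, CXCL10 at 0.22 and CCL2 at 0.26, while CCL13 (1.1) and CXCL12 (0.21) changed sign. Several members differed widely between same-numbered libraries in number 1 and little in number 2. CPM in siBANF1 1 over ICM 1 was 21.3 for CCL7, 6.53 for CCL20, 4.16 for CXCL10, 2.39 for CCL2, 0.55 for CXCL16 and 0.196 for CXCL12. In siBANF1 2 over ICM 2, the same ratio was 1.3, 1.1, 1.15, 1.18, 0.94 and 1.14. CCL26 did not follow this, at 0.825 in number 1 and 1.2 in number 2, and CCL11 was at 0.683 in number 2.

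**Figure D4:**
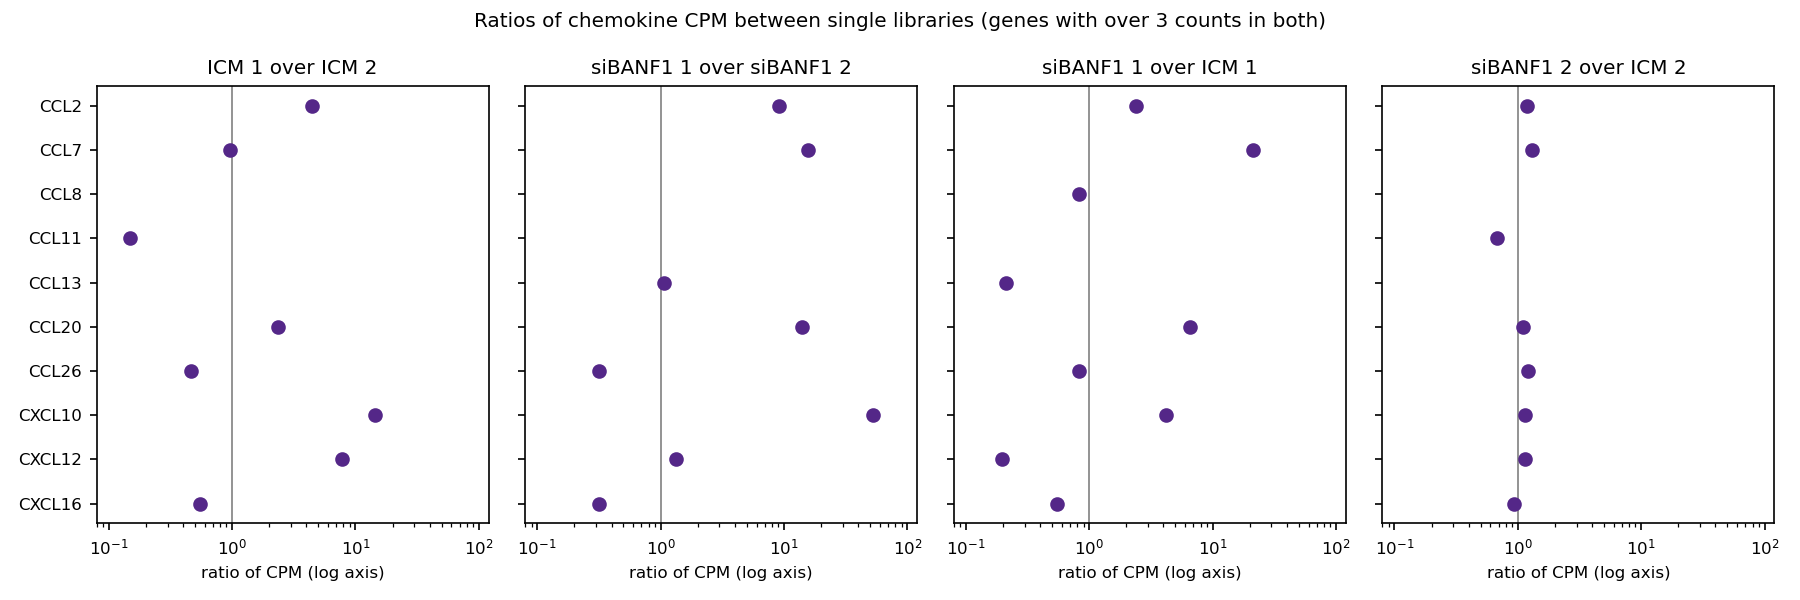
Ratios of CPM between single libraries on a log axis, for chemokines with more than 3 counts in both. Replicate 1 over replicate 2 spreads from 0.148 (CCL11) to 14.4 (CXCL10) in ICM and from 0.318 (CCL26) to 52.2 (CXCL10) in siBANF1, whereas siBANF1 2 over ICM 2 lies between 0.683 (CCL11) and 1.3 (CCL7).

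Replicates of ICM 1-2 and of siBANF1 also lay far apart. CPM in ICM 1 over ICM 2 was 14.4 for CXCL10, 7.78 for CXCL12, 4.48 for CCL2 and 2.38 for CCL20, and it was below 1 for CXCL16 (0.546), CCL26 (0.463) and CCL11 (0.148). The ratio of siBANF1 1 to siBANF1 2 was 52.2 for CXCL10, 15.8 for CCL7, 14.1 for CCL20 and 9.1 for CCL2. CXCL16 (0.319) and CCL26 (0.318) were again lower in number 1. Nearer to even were CCL7 in ICM (0.964) and, in siBANF1, CXCL12 (1.34) and CCL13 (1.06).

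Knockdown of CTCF, an architectural DNA-binding protein, in ICM-treated cells was compared with ICM 3-4. No gene was called (0.0%), with 125 at an unadjusted p under 0.05 and 0 called by DESeq2. CCL2 changed by -1.07 (SE 1.38), CXCL12 by -0.92 (SE 1.22), CCL26 by 0.12 (SE 0.79) and CXCL16 by -0.03 (SE 0.48), each with an adjusted p of 1. CCL20, CXCL10 and CCL8 had no counts in either arm and have no fold change. CCL7, CCL11 and CCL13 held 1 count in 1 of the 4 libraries, so a change of these genes was not detectable at this depth.

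The remaining chemokines of these families were almost silent. Of 28 other CC, non-ELR CXC, XC and CX3C genes listed, 17 had no count in any library and 2 exceeded 1 CPM in any. CCL28, a mucosal chemokine, reached 1.8 CPM in ICM 1, and CCL25, the ligand of CCR9, 1.07 CPM in siCTCF 1. CX3CL1, the transmembrane ligand of CX3CR1, was called lower in ICM 1-2 and in ICM 3-4, with 0 counts in each against 56 in WT (adjusted p = 0.0431 and 0.0383). CCL25 was called higher in ICM 3-4, with 36 counts against 2 in WT (adjusted p = 0.0175). Of 23 chemokine receptors listed, 6 passed the filter. In ICM 1-2 against WT, 1 was called lower (CXCR5, 1 count against 131), beside 6.87% of all genes. In ICM 3-4 against WT, 2 were called lower (CXCR5 at -3.47 and ACKR4, a scavenging receptor, at -3.89), beside 16.0% of all genes.

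Proteins that trim, shed or hold chemokines were expressed throughout, and all 13 listed were tested. None was called in ICM 1-2 against WT (13.5% of all genes). In ICM 3-4 against WT, 2 were called higher and 6 lower, beside 14.3% and 16.0% of all genes. DPP4, the protease that truncates and inactivates CXCL10 and CXCL12, fell by 2.54 on the log2 scale (SE 0.76, adjusted p = 0.0297), and the heparan sulfate carrier SDC2 fell by 2.04 (SE 0.47, adjusted p = 0.0106). ADAM10, a sheddase of CXCL16, fell by 1.07 (SE 0.37, adjusted p = 0.0482), and MMP3, a matrix protease, rose by 2.5 (SE 0.82, adjusted p = 0.0417). In the libraries labelled siSRRM2, SDC1 was higher by 2.28 (SE 0.33, adjusted p = 0.0404).

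The list of genes of the signalling that induces these chemokines had 33 genes tested. In ICM 1-2 against WT, 5 were called lower and none higher, beside 6.87% and 6.63% of all genes, and FOS fell by 3.13, CEBPB by 2.73, MYD88 by 1.99 and JUNB by 1.71. In ICM 3-4 against WT 19 were called lower and 5 higher, beside 16.0% and 14.3% of all genes. The largest falls there were of the cytokines IL6 (-9.49, SE 1.59) and IL1B (-7.75, SE 1.9), of CEBPD (-5.96, SE 1.02), a transcription factor of acute inflammation, and of TNFAIP3 (-5.33, SE 1.19), an NF-kB target that restrains the pathway. The median of the list was -0.73 in ICM 1-2 and -1.6 in ICM 3-4, against 0.1 and -0.02 for all genes.

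The neutrophil-attracting ELR chemokines, the group most like this one, had a larger summed level, 2262 and 976 CPM in WT. Of 6 tested, none was called in ICM 1-2 against WT (13.5% of all genes) and 5 were called lower in ICM 3-4 against WT (16.0% of all genes), among them CXCL1 (-11.58, SE 1.98), CXCL5 (-10.37, SE 2.07), CXCL6 (0 counts against 370) and CXCL8 (-3.78, SE 1.23). Their sum in siBANF1 1, 6880 CPM, was the highest of all libraries, against 261.5 in siBANF1 2.

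Over the 14 libraries, the genes whose log2(CPM + 1) most resembled that of CCL2, among 9201 genes averaging 10 CPM or more, were CSGALNACT1 (Pearson r = 0.989), IL6 (0.988), KLF9 (0.982), TCIM (0.978) and NCK2 (0.975). For CXCL12, among 9202 genes, they were LUC7L (0.993), TFDP1 (0.976), MKI67 (0.968), PRRX2 (0.967) and TOP2A (0.964). MKI67 and TOP2A mark proliferating cells. These values are a description, since the libraries share groups, sets and composition.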

How the data were processed

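RNA of 14 IMR90 libraries was measured. The authors deposited whole-number read counts by gene symbol in a file for each library, unpooled; STAR 2.7.3a, HTSeq 0.12.4, DESeq2 1.36.0 and the build hg38 are named in the submitters' processing notes, without role or order. The annotation release and strand setting are not given in the sources used here. Counts were 22336161 to 58257456 per library after leaving out 5 lines for reads given to no gene (12.75% to 41.78% of a library's reads).

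Genes were kept by filterByExpr over the 7 groups (ICM divided by set), leaving 19126 genes and 9 of the 10 members. Counts were scaled by TMM and tested in 1 fit of all 14 libraries (7 residual degrees of freedom) with edgeR 4.0.16 (quasi-likelihood F-test; R 4.3.3). Calls needed an adjusted p under 0.05 (Benjamini-Hochberg over all genes). The SE is the log2 fold change over the square root of F. CPM used total gene counts. Bounds used 3 counts over a group, and intervals are 95% Clopper-Pearson intervals, both covering counting error only. The fit was tested on simulated data.

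The members and gene lists were chosen with earlier results of these data known. The rule for named genes took all members in every comparison (CCL8 was not tested) and, of each other list, at most the 4 called genes of largest change. The genes resembling CCL2 and CXCL12 were the 5 of highest Pearson correlation. Alternatives were RLE or total-count scaling, other filters, DESeq2 1.42.0, fits to the compared libraries, a replicate block, leaving out each library, CPM on TMM sizes and another gene length; leaving out ICM 1 and siBANF1 1 together was chosen after seeing the data. Promoters and coordinates came from RefSeq (GRCh38.p14), with 7 of 10 members matched, and gene lengths from GENCODE v29. Python 3.11.15, pandas 2.3.3, scipy 1.17.1 and matplotlib 3.10.9 were used.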

Additional observations from a re-analysis of the deposited data

Results flagged for a closer look

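In the group of 4 ICM libraries, 5 of the 10 chemokines had 1 library far from the other 3. The gap to the nearest library, as a share of the group's range, was past the 95% critical value of Dixon's test, which chance passes in about 1 of 20 groups of like samples. These 4 libraries mix 2 sets, and 11.2% of the 19058 tested genes with any spread among them passed the same value. The library was ICM 1 for CXCL10 (6.885 CPM), CXCL12 (1.291 CPM), CCL13 (0.5942 CPM) and CCL8 (0.1229 CPM, 6 counts against 0 in the other 3), and ICM 2 for CCL11 (0.5527 CPM). ICM 1 and ICM 2 are the first-set libraries of that group. CCL8 was not tested, so it is not among the 19058 genes. A gene counted in only 1 of the libraries, like CCL8, always passes, since its gap is the whole range.

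CCL2 differed between the ICM sets, which carry 1 treatment label, with a log2 fold change of -5.73 (adjusted p = 0.011 in edgeR) for ICM 3-4 against ICM 1-2.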

How the results depend on the processing

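For ICM 1-2 against WT, the 2582 genes and 3 members called became 3883 and 5 with a filter of 1 count in any library, 4010 and 5 by DESeq2, 4222 and 5 with a replicate block, 33 and 0 with the compared libraries only, 1445 genes with both of these, and 8770 and 6 without ICM 1 and siBANF1 1. For ICM 3-4 against WT, 5797 became 8993 with the compared libraries only and 10485 (8 members in place of 6) without those 2 libraries. For ICM 3-4 against ICM 1-2, 3738 and 1 became 239 genes with the compared libraries only. Between the ICM sets, members called were 6 beside 4930 genes with a filter of 1 count, and 5 beside 5454 genes by DESeq2. For siHMGB2, 0 and 0 became 94 and 1 (filter of 1 count), 73 genes (DESeq2), 2055 and 3 (compared libraries only), 2293 and 3 (the same with a replicate block) and 258 genes (without those 2). For siSRRM2, 34 and 0 became 1 (total counts), 814 and 3 (filter of 1 count), 54 (mean of at least 1 CPM), 727 (DESeq2), 127 (replicate block), 0 (compared libraries only), 103 (the same with a replicate block) and 2016 and 3 (without those 2). For siBANF1, 0 and 0 became 161 and 3 (filter of 1 count), 17 (DESeq2), 1 (replicate block, compared libraries only) and 3 (without those 2), and for siCTCF 0 became 4 with a replicate block and the compared libraries only. Without those 2 libraries, ICM 1-2 and siBANF1 have no replicate. The causes were not tested.

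Leaving out 1 library at a time gave 545 to 3612 genes and 0 to 3 members for ICM 1-2 against WT, 1922 to 2602 and 3 to 4 for ICM 3-4 against WT, 1206 to 6059 and 0 to 4 between the ICM sets, 1 to 47 genes for siSRRM2 and 0 to 81 genes and 0 to 1 members for siBANF1.

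Values that changed sign were those of members not called in the main fit. In ICM 1-2 against WT, CCL13 moved to 0.04 (RLE), 0.03 (total counts and compared libraries only) and 0.05 (DESeq2), CCL11 to 0.09 (total counts), and CXCL10 to -0.90 (replicate block) and -0.86 (replicate block, compared libraries only). Without ICM 1 and siBANF1 1, CCL11 was 0.67 and CXCL10 -3.00 against WT, CXCL12 0.52 between the ICM sets, CCL2 0.26, CCL26 -0.30 and CXCL16 -0.08 in siSRRM2, and CCL13 1.10 and CXCL12 0.21 in siBANF1. Leaving out 1 library, values ranged in ICM 1-2 against WT from -1.89 to 0.67 (CCL11), -2.65 to 0.85 (CCL13) and -3.00 to 0.99 (CXCL10), and between the ICM sets from -2.56 to 0.52 (CXCL12). In siHMGB2 they ranged from -0.38 to 0.14 (CCL11), -0.16 to 2.40 (CCL26) and -0.16 to 0.57 (CXCL10), and in siSRRM2 from -2.05 to 0.26 (CCL2), -0.40 to 0.66 (CCL26), -0.35 to 3.63 (CXCL10) and -0.08 to 0.65 (CXCL16). In siBANF1 they ranged from -1.31 to 2.74 (CCL2), -2.42 to 1.31 (CCL11), -2.28 to 1.21 (CCL13), -0.68 to 3.29 (CCL20), -0.80 to 0.70 (CCL26), -2.85 to 5.10 (CXCL10), -2.59 to 0.50 (CXCL12) and -1.23 to 0.25 (CXCL16). In siCTCF they ranged from -2.50 to 0.15 (CCL2), -0.29 to 0.63 (CCL26), -6.17 to 0.19 (CXCL12) and -0.28 to 0.21 (CXCL16).

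Same-numbered libraries had deviations that correlated at 0.79 in siBANF1 and 0.42 in siCTCF and at -0.07 to 0.04 elsewhere, with 2 pairs each, so the numbers were not taken as pairs. Under the alternatives other than leaving out libraries, 307 of 339 values of single members kept direction and side of the threshold, and 7 changed sign. Fits that left out libraries are not among the 339. By longest transcript in place of the exon union, CXCL12 stood before CXCL10 in WT. Depth limits CCL8, CCL11, CCL13 and, in the second set, every member but CXCL16 and CCL26.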
